A study of Mus musculus with 9 samples.

Results

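Cholesterol and fatty acid synthesis in natural killer (NK) cells was followed through 33 genes, 18 of them enzymes of the sterol pathway, 10 enzymes of fatty acid synthesis and 5 regulators or transporters. The members were a list of gene symbols chosen with earlier results of these data known, and all 33 were found by their mouse Entrez identifiers among the 27179 genes counted. RNA sequencing had been done on splenic NK cells of C57BL/6 mice, in 9 libraries. There were 3 libraries of Id2-null NK cells and 3 of wild-type (WT) NK cells, both grown for 7 days in interleukin-15 (IL-15), a cytokine that NK cells need to survive and that makes them divide. A further 3 libraries, 1 each, came from wild-type populations named Immature, M1 and M2, which were sorted from spleen and lysed with no culture. The samples were matched to culture or sort by their order in the labels, which is a limit of every statement here on culture. The sources used here do not say how Id2 was deleted, how the sorted populations were defined or whether replicates came from separate mice. The p-values thus cover the spread among these libraries alone, and it may be technical.

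Cholesterol is built from acetyl-CoA by way of mevalonate, farnesyl diphosphate, squalene and lanosterol. Fatty acids are built from the same acetyl-CoA by acetyl-CoA carboxylase and fatty acid synthase, and are then elongated and desaturated. Both pathways are switched on by the SREBP transcription factors, which are encoded by Srebf1 and Srebf2. SCAP carries SREBP out of the endoplasmic reticulum when sterols are low, INSIG1 holds both back when sterols are high, and lymphocytes that start to divide are known to raise this programme to make membrane.

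The libraries held 4128414 to 4831831 counts each, which makes a count of 0 a level of up to 0.577 to 0.765 CPM (the count scaled to library size and by TMM, the trimmed mean of M values), by a limit of 3 counts for counting error only. The targeted gene Id2 was found at 8.97 to 23.9 CPM in the Id2-null cultures, against 374 to 408 CPM in the WT cultures. Xist, the X-inactivation RNA of female cells, stood at 658 to 874 CPM in the Id2-null cultures, 0.207 to 1.15 CPM in the WT cultures and 90.3 to 127 CPM in the sorted libraries. Sex and genotype therefore cannot be told apart in the cultures. Xist also differed between cultured WT and sorted libraries, so the part of sex in that comparison cannot be told apart from culture either. Nsdhl and Ebp are X-linked. The 10 NK cell markers had counts in all 9 libraries. They summed to 7221 to 8047 CPM in the Id2-null cultures, 9842 to 13056 CPM in the WT cultures and 15443 to 36110 CPM in the sorted libraries. The 5 neutrophil markers were at 0 in all 6 cultures and summed to 78.8, 107 and 474 CPM in Immature, M1 and M2, and the 6 macrophage and monocyte markers summed to 4.49 to 21.6 CPM in the cultures and to 129, 129 and 526 CPM in those sorted libraries. B cell markers summed to 0.408 to 1.76 CPM in the cultures and 36.9 to 96.0 CPM in the sorted libraries. T cell markers summed to 219, 331 and 183 CPM in Id2-null replicates 1 to 3 and to 62.9, 220 and 56.9 CPM in WT replicates 1 to 3. In the sorted libraries they summed to 92.0 to 565 CPM. The 4 adipocyte markers were at 0 in 8 libraries and summed to 0.75 CPM in M2.

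Cultured WT NK cells had far more RNA of this programme than sorted NK cells. Of 32 members tested, 28 rose and 1 fell in the cultured WT libraries (quasi-likelihood test of edgeR, p under 0.05 after Benjamini-Hochberg adjustment over all 11117 genes tested). Of all genes tested, 27.5% were called higher and 29.4% lower. The median log2 fold change of the members was 1.89, beside -0.02 over all genes, and 23 of the 32 were over 2-fold higher where 16.1% of all genes were. The remaining member, Me1, which encodes a malic enzyme that supplies NADPH, had 0 to 3 counts in each library and was not tested. In bulk RNA, a larger share of cells that express a gene and more RNA per cell cannot be told apart.

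**Figure D1:**
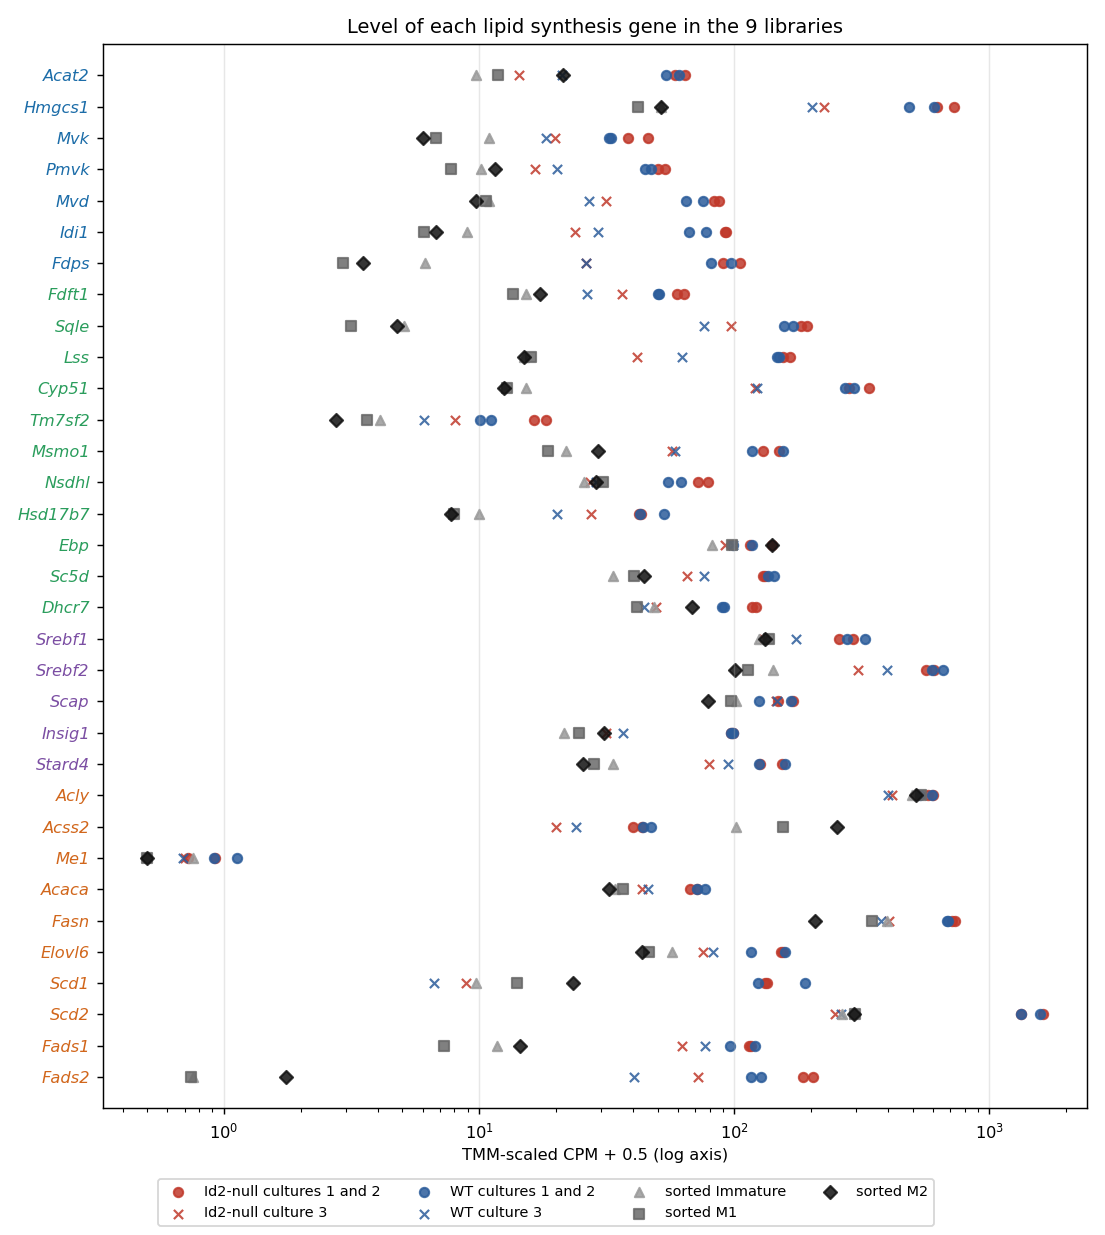
Levels of the 33 genes in the 9 libraries. Each row is a gene, coloured by role (blue for mevalonate steps, green for squalene and sterol steps, purple for regulators and transport, orange for fatty acid steps), and each symbol is a library on a log axis of TMM-scaled CPM with 0.5 added. Cultures 1 and 2 of both genotypes lie to the right of the sorted libraries for most rows, with Acss2 on the other side, and the crosses of culture 3 lie left of the other cultures except for Scap, Ebp and the few counts of Me1.

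The mevalonate steps rose together, 7 of 7. Hmgcs1, which encodes the synthase that makes HMG-CoA, stood at 607, 485 and 200.2 CPM in WT replicates 1 to 3, against 51.3, 41.5 and 51.0 CPM in Immature, M1 and M2. No cultured value overlapped a sorted one, and the log2 fold change was 3.17 (SE 0.38, adjusted p = 0.000328). Fdps, which makes farnesyl diphosphate, averaged 67.6 ± 37.1 CPM in cultured WT and 3.68 ± 1.70 CPM in sorted cells (SD, n = 3 each), an 18.4-fold difference. Idi1, the isopentenyl diphosphate isomerase, differed 8.5-fold and Mvd, the decarboxylase before it, 5.57-fold. The kinases Mvk and Pmvk and the thiolase Acat2, which opens the pathway, differed 3.69-, 3.95- and 3.26-fold. Of these 7 genes, Acat2 alone had overlapping groups, since WT replicate 3 lay at 20.6 CPM and M2 at 20.8 CPM.

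Of the 11 squalene and sterol steps, 9 rose and 0 fell. Sqle, which encodes squalene epoxidase, a rate-limiting step after squalene, stood at 169.8, 156 and 75.8 CPM in WT replicates 1 to 3, against 4.59, 2.66 and 4.25 CPM in Immature, M1 and M2. The lowest culture was far above the highest sorted library, with a log2 difference of 5.13 (SE 0.38, adjusted p = 5.71e-05), or 34.9-fold. Cyp51, the lanosterol demethylase, stood at 294, 270.3 and 122 CPM in the WT cultures, against 14.8, 12.3 and 12.0 CPM in the sorted libraries. It rose by 4.14 on the log2 scale (SE 0.35, adjusted p = 8.71e-05). Lss, which closes squalene epoxide to lanosterol, stood at 149, 147 and 62.1 CPM in the WT cultures, against 14.5, 15.4 and 14.5 CPM in the sorted libraries (log2 fold change 3.01, SE 0.34, adjusted p = 0.000253).

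The other sterol steps differed by less. Msmo1 and Hsd17b7, which act in removing the methyl groups of lanosterol, differed 4.84- and 4.73-fold, and Sc5d, a sterol desaturase, differed 3.04-fold. Tm7sf2, a sterol reductase, and Fdft1, the squalene synthase, differed 2.87- and 2.84-fold. Nsdhl was called at 1.72-fold (adjusted p = 0.0384), but its groups overlapped, with WT replicate 3 at 28.1 CPM and M1 at 30.2 CPM. That call was lost with limma voom, with all 9 libraries in the fit and without any 1 library other than WT replicate 3 (adjusted p 0.0741 to 0.16). Dhcr7, which makes cholesterol from its dehydro precursor, averaged 74.3 ± 26.5 CPM in cultured WT and 52.2 ± 13.9 CPM in sorted cells (adjusted p = 0.172), and it was called higher without WT replicate 3 (log2 fold change 0.81, adjusted p = 0.0156). Ebp, the sterol isomerase, averaged 104 ± 11.1 CPM in cultured WT and 106 ± 30.2 CPM in sorted cells (log2 fold change -0.01, SE 0.20, adjusted p = 0.961).

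The regulators and transport genes rose, 5 of 5. Srebf2, which encodes the SREBP that acts mainly on sterol genes, stood at 593, 656 and 397 CPM in WT replicates 1 to 3, against 142, 113 and 101 CPM in Immature, M1 and M2. No values overlapped, and the log2 fold change was 2.22 (SE 0.22, adjusted p = 0.000164). Srebf1, whose main products act on fatty acid genes, differed 1.99-fold, with 258 ± 77.4 CPM in cultured WT and 131 ± 5.82 CPM in sorted cells (adjusted p = 0.005). Stard4, a protein that moves cholesterol between membranes, stood at 157, 124 and 94.2 CPM in the WT cultures, against 32.9, 27.8 and 25.01 CPM in the sorted libraries (log2 fold change 2.14, SE 0.21, adjusted p = 0.000158). Insig1 differed 3.08-fold and Scap 1.59-fold. Scap, the escort of SREBP, differed least of the 5.

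**Figure D2:**
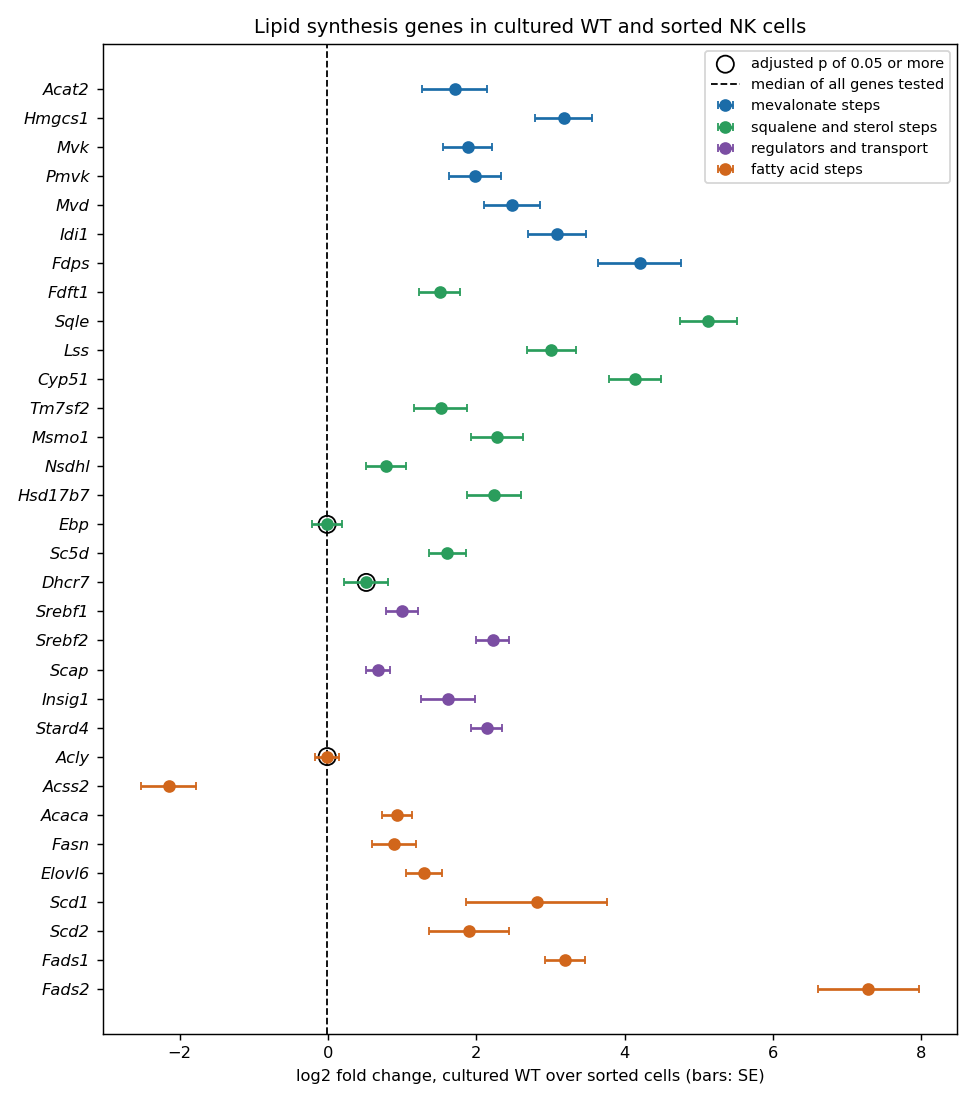
Log2 fold change of each tested gene in cultured WT over sorted cells, with SE bars, coloured by role, and a dashed line at the median of all genes tested. The 3 circled genes, Ebp, Dhcr7 and Acly, did not pass the test, Acss2 is the gene on the left, and Fads2 is the gene farthest to the right.

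Of 9 fatty acid genes tested, 7 rose and 1 fell. The desaturases Fads1 and Fads2, which make polyunsaturated fatty acids and lie on chromosome 19, rose most. Fads2 (GRCm38 positions 10062765 to 10101503) had 608, 558 and 208 counts in WT replicates 1 to 3, against 1, 1 and 5 counts in Immature, M1 and M2. That is 94.2 CPM in cultured WT against 0.58 CPM in the pooled sorted libraries, a ratio of 162. The counting interval of that ratio, 78.8 to 404, covers counting error of the 7 sorted counts alone and not the spread between libraries. In the edgeR test the log2 fold change was 7.28 (SE 0.68, adjusted p = 0.000128). Fads1 stood at 119.8, 95.2 and 76.3 CPM in the WT cultures, against 11.2, 6.76 and 14.0 CPM in the sorted libraries (log2 fold change 3.19, SE 0.28, adjusted p = 9.52e-05). Elovl6, an elongase, differed 2.45-fold and Acaca, the carboxylase that makes malonyl-CoA, 1.91-fold.

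The stearoyl-CoA desaturases Scd1 and Scd2, which make monounsaturated fatty acids, rose in the test but not in each library. Scd2 stood at 1576, 1331 and 262 CPM in WT replicates 1 to 3, against 264, 298 and 293 CPM in Immature, M1 and M2. Scd1 stood at 189, 123 and 6.15 CPM in the WT cultures, against 9.18, 13.5 and 22.8 CPM in the sorted libraries. WT replicate 3 thus lay below every sorted library for both genes. Their adjusted p were 0.0333 for Scd1 and 0.0168 for Scd2. The Scd1 call was lost with limma voom, with a robust quasi-likelihood fit, with all 9 libraries in the fit and without any 1 library other than WT replicate 3 (adjusted p 0.0506 to 0.299), and the Scd2 call with all 9 libraries in the fit and without WT replicate 1, WT replicate 2 or M1 (0.0527 to 0.0705). Scd1 and Scd2 are close copies that neighbour each other on chromosome 19, so how reads that match both were counted is uncertain. Fasn, the fatty acid synthase, averaged 582 ± 178 CPM in cultured WT and 317 ± 99.1 CPM in sorted cells (adjusted p = 0.0331), with overlapping groups, and was not called without WT replicate 1, WT replicate 2, M1 or M2 (0.0681 to 0.107).

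The enzymes that supply acetyl-CoA did not follow the others. Acss2, which makes acetyl-CoA from acetate, stood at 46.7, 43.5 and 23.5 CPM in WT replicates 1 to 3, against 101, 155 and 251 CPM in Immature, M1 and M2. It fell, with no overlap between groups and a log2 difference of -2.15 (SE 0.37, adjusted p = 0.00155), and was the 1 member of the 32 called lower. Acly, which makes acetyl-CoA from citrate, averaged 509 ± 101 CPM in cultured WT and 516 ± 21.1 CPM in sorted cells (log2 fold change -0.01, SE 0.16, adjusted p = 0.957). Per kilobase of gene length, Acly was the most abundant of the 33 transcripts in each sorted library, at 112, 121 and 116 CPM per kilobase in Immature, M1 and M2. The order after it differed by population, with Scd2 next in Immature at 48.5 CPM per kilobase and Acss2 next in M2 at 88.6, while Ebp, Acss2 and Scd2 lay between 54.6 and 55.9 in M1. In cultured WT the order was Scd2 at 194 CPM per kilobase, Hmgcs1 at 131, Srebf2 at 120.1 and Acly at 115, and the spread between libraries of Scd2 and Hmgcs1 overlaps that of Srebf2 and Acly.

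The Id2-null cultures, set against the same sorted libraries, gave a like picture. For 23 of the 32 members, as for 29.4% of all genes, each Id2-null library was above each sorted library. For the WT cultures it was 23 of the 32, beside 31.5% of all genes. WT replicate 3, the lowest of the WT cultures for 30 of the 32, was alone above each sorted library for 23 of the 32, as for 39.5% of all genes. Cell cycle genes differed in the same direction, and 15 of 16 rose in cultured WT, beside 27.5% of all genes. Their summed level was 4470 to 5068 CPM in the WT cultures and 617 to 1363 CPM in the sorted libraries. Of the 10 NK cell markers 6 were called lower and 0 higher in cultured WT, beside 29.4% and 27.5% of all genes. The marker sums of other cell types given above also differ between cultured and sorted cells. The part of cell cycle and marker genes in these differences was not tested.

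The counts for lists around the synthesis pathway are read against the 27.5% of all genes called higher and the 29.4% called lower. In a list of 10 further sterol and isoprenoid enzymes, 4 of 9 tested rose and 1 fell. Of 13 genes for SREBP processing and sterol uptake, 3 rose and 5 fell, shares near those of all genes. Tmem97, a sterol-regulated membrane protein, rose to 55.1 ± 17.6 CPM in cultured WT, against 8.59 ± 2.89 CPM in sorted cells. Of 12 genes of the LXR, efflux and esterification list 7 fell and 1 rose, with a median log2 fold change of -1.44. Abcg1, a cholesterol exporter and a known target of the sterol receptor LXR, fell to 14.2, 13.7 and 10.2 CPM in WT replicates 1 to 3, against 191, 226 and 249 CPM in Immature, M1 and M2 (log2 fold change -4.12, SE 0.18, adjusted p = 1.36e-05). Abca1, another such exporter, fell to 4.24 ± 1.72 CPM in cultured WT, against 116 ± 23.0 CPM in sorted cells. Mylip, which marks lipoprotein receptors for degradation, fell to 43.7 ± 5.88 CPM in cultured WT, against 211 ± 103 CPM in sorted cells. LXR target genes are also expressed by macrophages, whose markers were in the sorted libraries, and their part in these differences was not tested.

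Of 21 fatty acid activation and oxidation genes 3 rose and 8 fell, with a median log2 fold change of -0.27, beside 27.5% higher and 29.4% lower of all genes. Etfa, an electron carrier of fatty acid oxidation, stood at 29.3 ± 2.97 CPM in cultured WT and 66.6 ± 7.30 CPM in sorted cells, and Hadhb, a subunit of the mitochondrial trifunctional protein, at 10.8 ± 3.14 CPM in cultured WT and 28.7 ± 4.76 CPM in sorted cells. Of 16 triglyceride and phospholipid genes 2 rose and 8 fell. Pcyt2, which serves phosphatidylethanolamine synthesis, rose to 117 ± 40.1 CPM in cultured WT, against 28.3 ± 4.84 CPM in sorted cells, and Agpat3, an acyltransferase, fell to 76.6 ± 14.9 CPM in cultured WT, against 260.4 ± 33.5 CPM in sorted cells. Of 13 other fatty acid synthesis genes 4 rose and 3 fell, again near the shares of all genes, among them Tecr, which rose to 185 ± 31.7 CPM in cultured WT, against 93.6 ± 6.23 CPM in sorted cells, and Elovl7, which fell to 5.58 ± 1.34 CPM in cultured WT, against 65.5 ± 36.0 CPM in sorted cells.

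Promoters of the members were searched for sequence elements that SREBP and its partner NF-Y are known to bind. RefSeq windows of 300 bases in GRCm38.p6, from 250 bases before to 50 after a start site, were found for 26 of the 33 members. None was found for Sqle, Fdps, Fdft1, Stard4, Scd1, Scd2 and Fads1. The sterol element was written as TCACNCCAC and the NF-Y element as CCAAT, and both strands were read, with any start site of a gene counting. The CCAAT element lay in 21 of the 26 members (80.8%), against 43.3% of the 8660 tested genes with a window, and 10 of the 26 had at least 2 copies, against 17.3%. The sterol element lay in 1 of the 26, Hmgcs1, and in 1.34% of the tested genes. Of all 32851 windows 37.4% held CCAAT and 1.24% the sterol element. A match is a description of letters and not a binding site. The windows printed are those of Hmgcs1 with both elements, Mvk with the most CCAAT copies, Fasn, the synthase, Fads2 with the largest rise and no match, and Acss2, which fell. Capitals mark the elements, ATTGG being CCAAT on the other strand.
Hmgcs1 promoter (chr13:119690101-119690400, plus strand): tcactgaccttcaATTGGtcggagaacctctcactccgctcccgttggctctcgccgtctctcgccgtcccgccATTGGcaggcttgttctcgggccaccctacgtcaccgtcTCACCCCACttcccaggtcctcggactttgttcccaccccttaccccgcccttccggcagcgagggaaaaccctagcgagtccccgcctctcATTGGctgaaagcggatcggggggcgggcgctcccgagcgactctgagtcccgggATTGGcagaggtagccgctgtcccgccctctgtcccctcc
Mvk promoter (chr5:114444019-114444318, plus strand): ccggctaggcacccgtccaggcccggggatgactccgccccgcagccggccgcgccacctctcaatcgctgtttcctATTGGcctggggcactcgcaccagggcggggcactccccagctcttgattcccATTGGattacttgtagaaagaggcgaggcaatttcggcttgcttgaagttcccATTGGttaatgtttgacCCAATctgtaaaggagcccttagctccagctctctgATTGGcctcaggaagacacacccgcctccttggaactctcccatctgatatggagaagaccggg
Fasn promoter (chr11:120824498-120824797, minus strand): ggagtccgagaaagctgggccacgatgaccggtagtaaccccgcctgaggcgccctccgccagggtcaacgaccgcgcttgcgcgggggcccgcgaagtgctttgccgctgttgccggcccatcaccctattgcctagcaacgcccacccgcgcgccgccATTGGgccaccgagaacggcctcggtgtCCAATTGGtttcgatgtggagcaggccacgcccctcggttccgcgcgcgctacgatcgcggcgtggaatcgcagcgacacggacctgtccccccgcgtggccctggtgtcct
Fads2 promoter (chr19:10101454-10101753, minus strand): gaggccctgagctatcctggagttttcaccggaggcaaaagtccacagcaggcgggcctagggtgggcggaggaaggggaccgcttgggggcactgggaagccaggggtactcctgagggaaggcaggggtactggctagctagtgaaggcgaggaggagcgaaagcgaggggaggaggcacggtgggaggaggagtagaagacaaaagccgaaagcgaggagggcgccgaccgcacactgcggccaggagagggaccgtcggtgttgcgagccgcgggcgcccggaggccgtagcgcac
Acss2 promoter (chr2:155517793-155518092, plus strand): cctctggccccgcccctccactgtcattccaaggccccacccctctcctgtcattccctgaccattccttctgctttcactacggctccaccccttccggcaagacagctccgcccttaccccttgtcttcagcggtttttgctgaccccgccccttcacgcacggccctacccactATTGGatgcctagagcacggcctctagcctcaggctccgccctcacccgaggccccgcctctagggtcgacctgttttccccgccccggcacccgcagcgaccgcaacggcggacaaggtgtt
In Fasn, 2 CCAAT copies on opposite strands overlap, which gives the capital run of 8 bases. Acss2, the member that fell, holds 1 copy, and Ebp, Dhcr7 and Acly, which were not called, hold copies too. The 5 members with a window and no CCAAT, Acat2, Scap, Acaca, Elovl6 and Fads2, were all called higher in cultured WT. The 1 window of Acaca, from position 84195188 on chromosome 11, lies inside the gene, whose span starts at 84129635 on the plus strand. The sequence before that first position was not read, so whether it holds CCAAT is not known here.

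Replicate 3 of both genotypes stood low for the programme. For 30 of the 32 members tested in the cultures, both replicate 3 libraries lay below each of the other 4 cultures, as for 13.3% of all 11022 genes tested. Replicate 3 was also the lowest of the 3 libraries in each genotype for 30 members, beside 21.8% of all genes. The exceptions were Scap and Ebp. The median member had a log2 ratio of replicate 3 to the mean of replicates 1 and 2 of -1.09 in Id2-null and -1.03 in WT, beside -0.01 in each genotype over all genes (0.5 CPM added). Members under 0.5 of that mean were 21 of 32 in Id2-null, beside 6.44% of all genes, and 17 of 32 in WT, beside 3.41%. In both genotypes at once they were 15 of 32, beside 2.06%. The replicate numbers are the labels' own and say nothing of how the cultures differed, so these ratios are a description with no test.

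**Figure D3:**
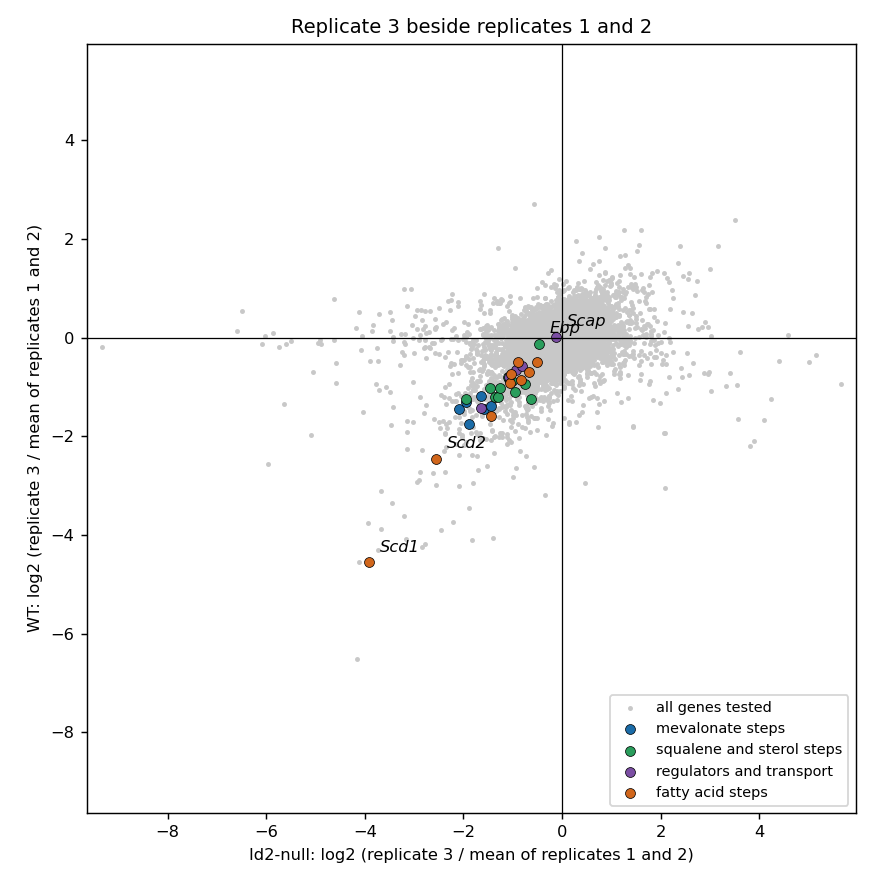
Log2 ratio of replicate 3 to the mean of replicates 1 and 2 in Id2-null cultures (x axis) and WT cultures (y axis), with 0.5 CPM added. Grey points are all 11022 genes tested and coloured points the 32 members by role. The members lie in the lower left, Scd1 and Scd2 farthest out, and Scap and Ebp nearest to 0.

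The size of the difference varied by step. Scd1 in replicate 3 had 8.36 CPM in the Id2-null library, 6.28% of the mean of the other replicates, and 6.15 CPM in the WT library, 3.94% of it. Scd2 stood at 16.9% of that mean in Id2-null and 18.05% in WT. Among the mevalonate steps the range was 22.8 to 46.6% in Id2-null and 29.1 to 55.2% in WT, with Acat2 lowest in Id2-null and Fdps in WT. Insig1, a known SREBP target, stood at 31.7% in Id2-null and 36.9% in WT, and the pairs of values that follow keep that order. Srebf2 stood at 52.3% and 63.6%, Srebf1 at 47.3% and 57.6%, and Fasn at 55.7% and 55.0%. Acly at 70.3% and 70.6% and Scap at 91.6% and 101% were among the least changed.

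The pattern of steps was alike in the genotypes, which share no library. Across the 32 members the log2 ratios of Id2-null and WT had a Pearson r of 0.92 and a Spearman rho of 0.82, and r was 0.83 without Scd1 and Scd2, beside 0.42 over all genes. These are correlations across genes, which are not independent replicates. Replicate 3 held 4482468 counts in Id2-null, against 4476563 and 4628289 in replicates 1 and 2, and 4831831 counts in WT, against 4657719 and 4729566. Cell cycle genes did not move alike in both, since their summed level was 2859 CPM in Id2-null replicate 3 against 4062 and 4509 CPM in replicates 1 and 2, and 5068 CPM in WT replicate 3 against 4943 and 4470 CPM. T cell markers summed to 183 CPM in Id2-null replicate 3 against 219 and 331 CPM in replicates 1 and 2, and to 56.9 CPM in WT replicate 3 against 62.9 and 220 CPM. Their median log2 ratios were -0.58 in Id2-null and -1.29 in WT over 4 genes. The 10 NK cell markers had median log2 ratios of 0.10 in Id2-null and -0.05 in WT. Of these markers, 1 was under 0.5 of the mean of the other replicates in both genotypes. It was Prf1, which encodes perforin, at 293 CPM in Id2-null replicate 3 against 685 and 528 CPM, and at 592 CPM in WT replicate 3 against 1748 and 2010 CPM. The part of these cell cycle and marker genes in the ratios was not tested. Acss2, which fell in culture, was low in replicate 3 too, at 47.6% and 52.1%. The further sterol and isoprenoid list had medians of -0.08 and -0.16, and the efflux list -0.36 and -0.18. The former ran from -1.14 to 0.52 in Id2-null and from -1.11 to 0.47 in WT. In it 2 of 9 genes were under 0.5 of the mean in both genotypes, beside 2.06% of all genes.

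Id2-null and WT cultures were compared for the effect of losing ID2, a helix-loop-helix protein that keeps E proteins off DNA. Of 32 members 0 were called in either direction (edgeR quasi-likelihood test), where 3.36% of all 11022 genes were, and 0 had an unadjusted p under 0.05. DESeq2 and limma voom also called 0. The Id2-null and WT ranges overlapped for all 32 members. The share of all genes with such an overlap is not given here, so this count is not read as a result about the members. Their log2 fold changes ran from -0.21 for Scd1 to 0.71 for Fads2, with a median of 0.08 beside 0.01 over all genes. The spread within a genotype was wide for these genes. The median SE of the members was 0.36, beside 0.18 over all genes, and the largest were 1.10 for Scd1 and 0.76 for Scd2. Hmgcs1 stood at 728, 623 and 225 CPM in Id2-null replicates 1 to 3, against 607, 485 and 200.2 CPM in WT replicates 1 to 3 (log2 fold change 0.29, SE 0.49, adjusted p = 0.852).

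A block for the replicate number gave other results. The labels state no pairing, and it was inferred from these same counts. The median SE of the members was 0.11 and 1 of 32 was called. With the block 6.31% of all genes were called, 3.37% higher. At an unadjusted p under 0.05 with the block 7 members were higher in Id2-null and 0 lower (Hmgcs1, Mvd, Fdft1, Sqle, Tm7sf2, Dhcr7 and Fads2), beside 10.3% of all genes higher. The gene called after adjustment was Fads2, the desaturase that starts polyunsaturated fatty acid synthesis, at 203, 185 and 71.4 CPM in Id2-null replicates 1 to 3, against 127, 116 and 40.0 CPM in WT replicates 1 to 3. The Id2-null library was the higher one of each same-numbered pair, by 1.60-, 1.60- and 1.78-fold. With the block it rose by 0.73 on the log2 scale (SE 0.09, adjusted p = 0.00803), and without it the value was 0.71 (SE 0.49, adjusted p = 0.588). Fads1, its neighbour on chromosome 19, stood at 114, 116 and 61.8 CPM in Id2-null, against 119.8, 95.2 and 76.3 CPM in WT (log2 fold change -0.02 with the block, SE 0.13, adjusted p = 0.941). The difference between Fads2 and Fads1 was not tested. Leaving out both replicate 3 libraries as well left 1 residual degree of freedom and 5 members called higher, Fads2, Tm7sf2, Dhcr7, Idi1 and Nsdhl, beside 7.76% of all genes. In the replicate 3 pair that was left out, Idi1 and Nsdhl were lower in Id2-null, at 0.81 and 0.95 of WT. With the block and all 6 cultures their edgeR adjusted p were 0.589 and 0.362. Cell type markers also differed by genotype in the block fit of all 6 cultures. Of 4 T cell markers tested 2 were called higher, Cd3d and Cd3g, and 1 lower, Cd3e. Of 10 NK cell markers 3 were called lower and 0 higher. The part of cell content in the genotype differences was not tested.

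**Figure D4:**
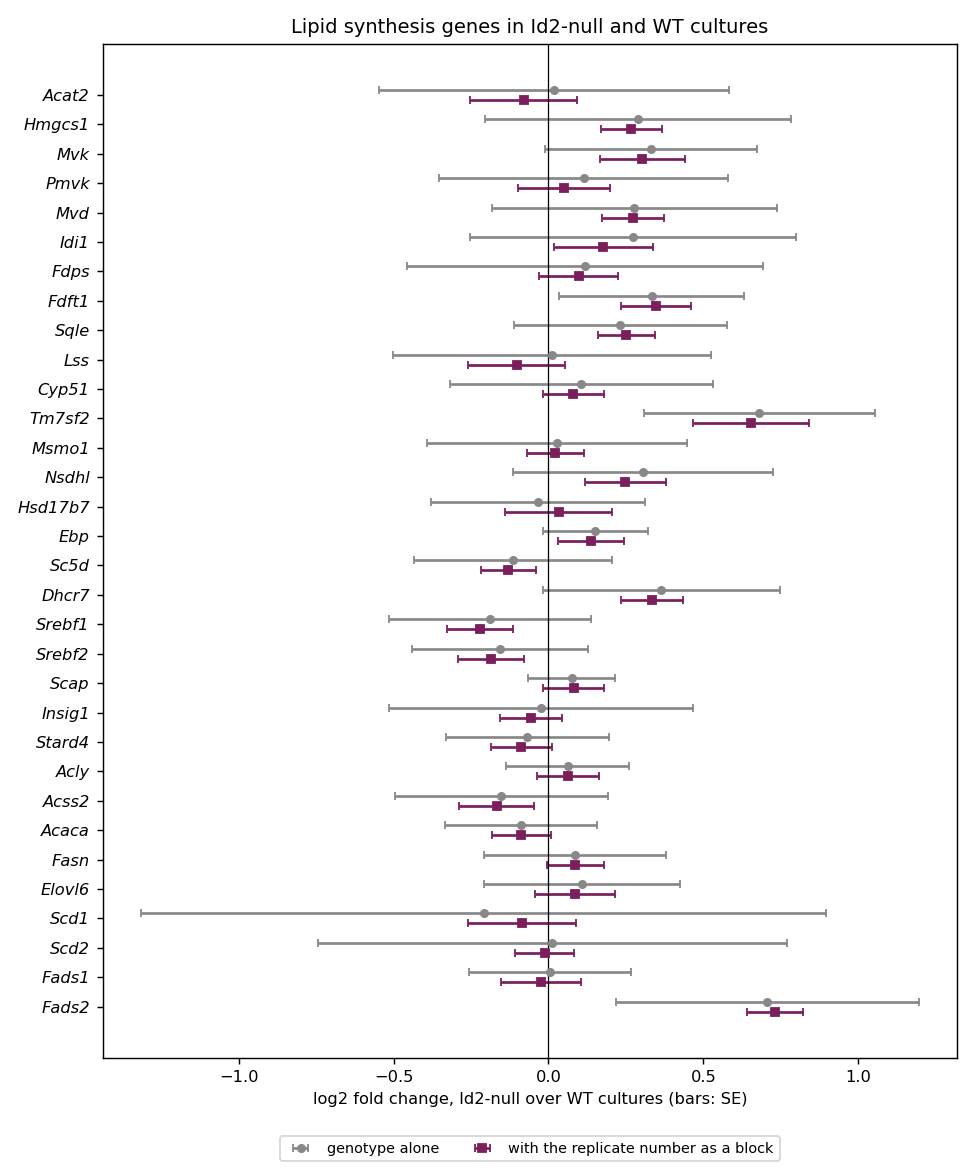
Log2 fold change of each tested gene in Id2-null over WT cultures, with SE bars, by genotype alone (grey circles) and with the replicate number as a block (purple squares). The block shortens the bars, and Fads2 at 0.73 is the gene called with it.

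The 7 mevalonate genes had a median log2 fold change of 0.27 by genotype alone and 0.18 with the block, and the 11 squalene and sterol genes 0.15 and 0.14. The 5 regulators and transport genes had medians of -0.07 and -0.09, and the 9 fatty acid genes 0.01 and -0.01. Tm7sf2, a sterol reductase, stood at 15.9, 17.8 and 7.55 CPM in Id2-null, against 9.58, 10.6 and 5.58 CPM in WT, which did not pass with the block (log2 fold change 0.65, SE 0.19, adjusted p = 0.111). Dhcr7 stood at 121, 116 and 49.0 CPM in Id2-null, against 90.6, 88.6 and 43.7 CPM in WT (0.33, SE 0.10, adjusted p = 0.129 with the block). Cyp51 and Sqle had log2 fold changes of 0.08 (SE 0.10) and 0.25 (SE 0.09) with the block. Srebf2 and Srebf1 had -0.19 and -0.22 (SE 0.11 each, adjusted p 0.397 and 0.315). Over the same-numbered pairs 9 members were higher in Id2-null in all 3 and 5 were lower in all 3, as were 21.9% and 21.5% of all genes tested.

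In the efflux list Mylip rose to 81.4 ± 6.51 CPM in Id2-null, against 43.7 ± 5.88 CPM in WT (adjusted p = 0.0148), the 1 gene called of 10 tested, beside 3.36% of all genes. With the block Soat2 of the same list, which esterifies cholesterol, was called lower (12.6 CPM in Id2-null, 22.4 CPM in WT, edgeR adjusted p = 0.0393), so that 2 of 10 were called, beside 6.31% of all genes. Both were picked from several side lists.

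Over the sorted Immature, M1 and M2 populations few members differed by 2-fold. Each population is 1 library, so differences have no replicate check, and intervals are exact Poisson 95% intervals for counting error. Of 26 members with at least 10 CPM in 1 of the 3 libraries, 3 were over 2-fold higher in M2 than in Immature and 0 over 2-fold lower. Of all 9243 such genes 5.3% and 4.39% were. Between M1 and Immature 0 of the 26 passed 2-fold, beside 1.89% of all genes above and 3% below, and between M2 and M1 1 was above, Fads1 at 14.0 CPM in M2 against 6.76 CPM in M1, beside 3.01% of all genes, and 0 below, beside 1.31%.

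The members over 2-fold higher in M2 than in Immature were Acss2, Scd1 and Acat2. Acss2 stood at 101 CPM in Immature (interval 91.1 to 111), 155 CPM in M1 (143 to 167) and 251 CPM in M2 (236 to 267). No interval overlapped another, and the ratio of M2 to Immature was 2.49. Scd1 stood at 9.18, 13.5 and 22.8 CPM in Immature, M1 and M2, and Acat2 at 9.18, 11.3 and 20.8 CPM. For both, the interval of M2 lay above those of the other populations. Ebp stood at 81.1, 97.3 and 139.5 CPM and Dhcr7 at 48.0, 41.0 and 67.8 CPM, with M2 likewise apart.

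Other members were lower in M2. Fasn stood at 398 CPM in Immature (interval 378 to 418), 347 CPM in M1 (329 to 365) and 206 CPM in M2 (192 to 221), so that M2 was at 0.52 of Immature. Srebf2 stood at 142, 113 and 101 CPM in Immature, M1 and M2 and Scap at 101, 96.8 and 78.3 CPM, with M2 apart from Immature in both. In all, the intervals of M2 and Immature were apart for 8 of 26 members, beside 38% of all 9243 genes, so this count is not above the background. Acly at 495, 537 and 515 CPM, Lss at 14.5, 15.4 and 14.5 CPM and Srebf1 at 125, 136 and 131 CPM had overlapping intervals in the populations. An overlap does not show that levels are equal, and that of Acly in Immature (473 to 517) and M1 (515 to 560) was narrow. Sqle had 18, 11 and 17 counts and Fads2 1, 1 and 5, too few to order. The neutrophil and the macrophage and monocyte markers were also highest in M2, at summed levels of 474 and 526 CPM, and T cell markers were highest in Immature, at 565, 92.0 and 148 CPM in Immature, M1 and M2. The part of these in the differences between populations was not tested. Cell cycle genes summed to 1363, 617 and 744 CPM in Immature, M1 and M2.

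**Figure D5:**
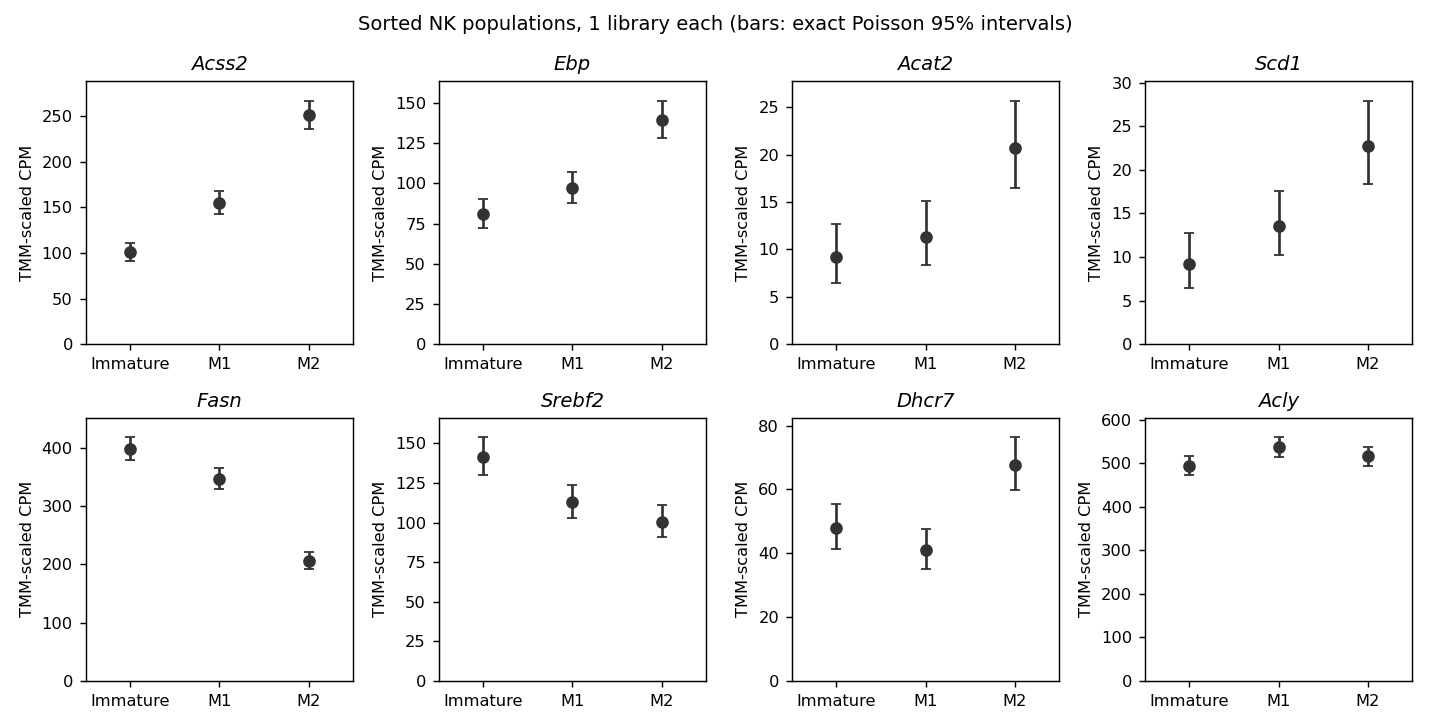
TMM-scaled CPM of 8 members in the sorted Immature, M1 and M2 libraries, 1 library each, with exact Poisson 95% intervals and axes from 0. Acss2 is higher from Immature to M1 to M2, Fasn is lowest in M2 at 206 CPM, and the intervals of Acly overlap.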

How the data were processed

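Total RNA of splenic NK cells was sequenced, per the labels' protocols. The deposited values are raw read counts by Entrez gene, per the file headers, which also name a gene length. Subread, featureCounts and limma are the tools and GRCm38 (mm10) the build named, per the submitters' processing notes, which give no roles here. Their versions, the annotation and the strand setting were not given in these sources.

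Of 27179 genes, 25275 were given symbols by Entrez identifier from RefSeq GRCm38.p6 (1904 had none). In R 4.3.3, edgeR 4.0.16 was fitted to 6 cultures by genotype, and to 3 WT cultures and 3 sorted libraries by preparation. Genes passed filterByExpr at a minimum count of 10, libraries were scaled by TMM, and quasi-likelihood tests were adjusted by Benjamini-Hochberg over all genes tested. The threshold for a call was 0.05. No sorted population is replicated, so the 3 form 1 arm whose spread holds their differences. Populations were set side by side with no test. Printed CPM use TMM over all 9 libraries. The script was tested on simulated data with 200 changed genes.

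The members and lists were chosen with earlier results of these data known. Full statistics are given for the 8 called members of lowest adjusted p in a comparison, for members called with the replicate block, and for up to 4 called genes of other lists. Acss2, Scd1, Scd2, Fasn and the members that did not pass were added after their values were seen. Some genes that this rule names are not reported here.

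Same-numbered Id2-null and WT libraries deviated together from their genotype means over 11022 genes (r = 0.35, 0.24 and 0.42), and each correlated best with its own number. Replicates 1 and 2 were less clearly told apart, with r = 0.19 for Id2-null 1 with WT 2 and 0.13 for Id2-null 2 with WT 1. The numbers were therefore taken to pair the libraries. Their meaning is not given in the labels. Alternatives were DESeq2 1.42.0, limma 3.58.1 voom, other scalings, no filter, all 9 libraries, leaving out each library or both replicate 3 libraries, and the block. A robust quasi-likelihood fit was added after the data were seen.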

Additional observations from a re-analysis of the deposited data

How the results depend on the processing

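Of the 29 members called between cultured WT and sorted cells, 25 kept their call and direction in each alternative run and none reversed. The exceptions were Nsdhl, Fasn, Scd1 and Scd2. The members called higher were 24 to 29 when 1 library was left out, and the member called lower was 1 in each alternative. Library sizes alone moved the median log2 fold change of all genes from -0.02 to 0.15 and the split of calls to 3718 higher and 2606 lower, against 3055 and 3270, and the members' median to 2.04. Between Id2-null and WT cultures the members called higher were 0 in each fit without a block that kept a replicate 3 library. They were 1 with the replicate block, 1 when leaving out replicate 3 of both genotypes, and 5 with both changes (Fads2, Tm7sf2, Dhcr7, Idi1 and Nsdhl), a fit with 1 residual degree of freedom. Idi1 and Nsdhl were lower in Id2-null in the replicate 3 pair left out. The genes called, 370 in all, were 580 with DESeq2, 105 to 624 when 1 library was left out, 696 with the replicate block, 1014 without replicate 3 of both genotypes and 1649 with both. Leaving out 1 culture moved the members' median log2 fold change from 0.08 to between -0.17 and 0.40. It was 0.40 without Id2-null replicate 3 and -0.17 without WT replicate 3, the 2 libraries that stood low for the programme. Without Id2-null replicate 1 or 2 it was -0.06 or -0.08, and without WT replicate 1 or 2 it was 0.31 or 0.20. The cause was not tested. Among sorted populations, members past 1.5-fold were 3 for M1 against Immature, 6 for M2 against Immature and 8 for M2 against M1, where 2-fold gave 0, 3 and 1. In the same order, at least 1 CPM gave 1, 4 and 2, and library sizes alone 0, 4 and 0. The shares of all genes at 1.5-fold, at 1 CPM and with library sizes alone are not given here. The member counts at these alternative settings are therefore not read as above or below the background. Depth limits the sorted values, where Sqle, Fdps, Tm7sf2 and Fads2 had 1 to 22 counts.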
